A study of Oryza sativa with 24 samples.

Results

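The genes described here are those whose anther transcript level moved with cold in 2 rice lines, Sasanishiki and PL9, and hardly moved in the other 2, Nipponbare and Lambayeque1. They were chosen from the measured values themselves. For each line the cold change was log2 of the cold group mean plus 1, minus log2 of the untreated group mean plus 1. A member had a change of at least 1 in both Sasanishiki and PL9, or of at most -1 in both, with an absolute change under 0.5 in both Nipponbare and Lambayeque1, and at least 1 group mean of 5 or more. Of 32511 gene identifiers that stand on 1 row of the deposited tables, 87 met the rule. In 46 of them the level was higher after cold in Sasanishiki and PL9 (the raised members), and in 41 it was lower (the lowered members). Because the rule used the cold changes, these are given as a description, without a test.

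The study sequenced RNA from anthers of 4 lines of Oryza sativa at the booting stage, as 24 libraries in 8 groups of 3. The groups were cold-treated and non-treated Sasanishiki, cold-treated and non-treated PL9, cold-treated and non-treated Nipponbare, and cold-treated and non-treated Lambayeque1. Plants were raised under glass, with days of 25 °C and nights of 19 °C, 20 to a pot and with side shoots cut off. The cold groups spent 4 days at 12 °C from a stage between late tetrad and uninucleate pollen, judged from the distance between the auricles of the upper leaves. The titles number 3 libraries per group, whereas the series text speaks of 2 replicates. No label ties the libraries to separate plants or pots, so the p-values below measure the spread between libraries, which may be technical.

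Young microspores in the anther are fed by the tapetum, the innermost layer of the anther wall, which secretes nutrients, enzymes and pollen wall material and later breaks down. Cold around the young microspore stage is a known cause of poor pollen and empty grains in rice, and cultivars differ in how strongly they are affected. In bulk anther RNA, a lower value may come from fewer cells of a type or from less RNA per cell, and these cannot be told apart.

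The libraries carried 17563 to 19303 identifiers at a value of 1 or more. Levels are given in the deposited abundance unit, which the file headers call TPM (an abundance scaled for transcript length) but whose columns sum to 1.20 to 1.72 times the total that TPM implies. The read depth behind each value is unknown. The tissue label was checked with marker genes: 2 stamen genes summed to 1472 to 3500 in every library, and 3 carpel and outer floret genes to 0.529 to 15.4. Libraries of a group were correlated over the 22495 identifiers that reached 1 in 3 or more libraries. PL9 cold libraries 1 and 2 stood farthest from the rest of their group. Their median correlations were 0.905 and 0.891, against 0.929 to 0.976 in the 22 libraries outside that pair. The PL9 values of both classes are also given without that pair.

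In the raised class, the groups that stood apart were mostly the untreated anthers of Sasanishiki and PL9. The median level over the 46 members was 8.51 in cold and 1.93 in untreated Sasanishiki, and 11.2 in cold and 1.83 in untreated PL9. In Nipponbare it was 11.2 in cold and 9.53 in untreated anthers, and in Lambayeque1 4.07 in cold and 4.24 in untreated anthers. Untreated Sasanishiki and untreated PL9 both lay below all 6 other group means for 32 of the 46 members, whereas cold Sasanishiki and cold PL9 both lay above all 6 other group means for 7. The rule itself put each of these untreated groups below its own cold group, so part of this order was fixed by selection. These counts only describe the chosen members. On the log2 scale Nipponbare lay nearer to the cold level of Sasanishiki and PL9 than to their untreated level for 44 of 46 members, and the median member differed from that cold level by 0.17. Lambayeque1 lay between, nearer to the cold level for 21 members, with a median difference of -0.89 from the cold level and 0.69 from the untreated level.

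The median cold change of the raised class was 1.61 in Sasanishiki (range 1.01 to 3.96) and 1.80 in PL9 (1.03 to 4.25), against 0.08 in Nipponbare and 0.09 in Lambayeque1. It was larger in PL9 than in Sasanishiki for 30 of the 46. All 3 cold libraries lay above all 3 untreated ones for 42 members in Sasanishiki, where 18.7% of all 22495 tested identifiers did so, and for 22 in PL9, where 16.6% did. For 20 members this held in both lines (7.93% of all tested), and for 2 in neither. In limma, a linear model fitted over all tested identifiers, 34 of 46 had a Benjamini-Hochberg adjusted p under 0.05 for higher cold levels in Sasanishiki, against 12.6% of all tested, and 31 of 46 in PL9, against 9.05%. Since the rule used these contrasts, nothing is read from the counts.

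**Figure D1:**
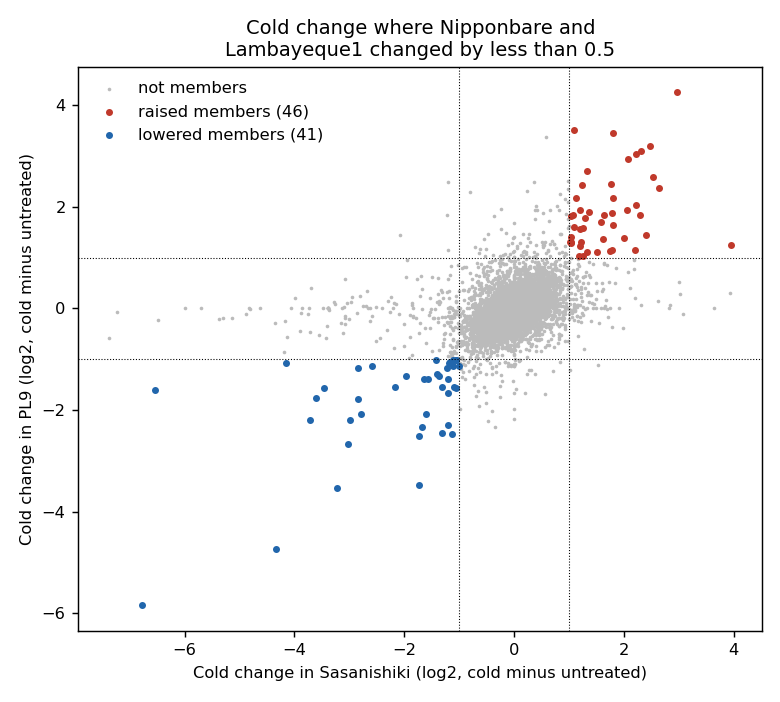
Cold change in Sasanishiki (horizontal axis) and PL9 (vertical axis), in log2 units of cold minus untreated, for the identifiers with a group mean of at least 5 whose change in Nipponbare and Lambayeque1 was under 0.5. The 46 raised members (red) fill the upper right corner beyond 1 and the 41 lowered members (blue) the lower left corner beyond -1, where PL9 reaches -5.84 and Sasanishiki -6.78.

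Among raised members, the largest change common to both lines was that of Os06g0623700. Its values were 10.6, 11.2 and 3.45 in cold and 0.253, 0.327 and 0 in untreated Sasanishiki, and 0.207, 45.4 and 8.62 in cold and 0, 0 and 0 in untreated PL9. Nipponbare had 6.09, 7.68 and 23.7 in cold and 17.5, 3.68 and 7.55 in untreated anthers, and no Lambayeque1 library exceeded 2.44. The gene was thus listed at 0 in every untreated PL9 library while it was well above 1 in every Nipponbare library, and PL9 cold library 1 stayed close to the untreated level. Os11g0515000 had the same layout at a higher level, with 22.6, 11.6 and 28.2 in cold and 1.42, 2.70 and 3.37 in untreated Sasanishiki, and 6.28, 57.3 and 19.9 in cold and 4.15, 4.01 and 5.70 in untreated PL9. Its 6 Nipponbare libraries ran from 17.4 to 38.7 and its 6 Lambayeque1 libraries from 13.8 to 31.9. The untreated Sasanishiki and PL9 libraries and PL9 cold library 1, all at or under 6.28, lay below every other library, the lowest of which had 11.6.

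Os02g0178800 was an abundant member with little spread. It measured 110.4, 131 and 66.9 in cold and 23.7, 49.4 and 24.9 in untreated Sasanishiki, and 108, 154 and 126 in cold and 35.2, 52.7 and 60.3 in untreated PL9. Nipponbare had 174, 137 and 113 in cold and 187, 182 and 163 in untreated anthers, and Lambayeque1 had 153, 141 and 128 in cold and 138, 129.7 and 133 in untreated anthers. Every untreated Sasanishiki and PL9 library was below every other library, and cold Sasanishiki and PL9 overlapped the lower part of the range of the other lines. Os12g0529300 was listed at 0 in all 3 untreated Sasanishiki libraries, against 15.5, 20.4 and 7.76 in cold Sasanishiki. In PL9 it had 2.14, 13.4 and 6.85 in cold and 5.42, 2.25 and 0 in untreated anthers, groups that overlap.

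Of the raised members without this layout, 3 had both cold groups above all others and 11 neither pattern. Os07g0543300, one of the 3, measured 651, 1159 and 684 in cold and 111, 108 and 289 in untreated Sasanishiki, and 1510.5, 884 and 1246 in cold and 317, 534 and 167 in untreated PL9. All 12 Nipponbare and Lambayeque1 libraries lay between 0.890 and 3.39. The gene was therefore high in both lines with or without cold, higher still in cold without overlap, and low in the other lines in either condition. Os06g0691200 had 73.3, 90.2 and 69.8 in cold and 3.29, 19.7 and 18.6 in untreated Sasanishiki, and 95.8, 53.3 and 93.1 in cold and 23.0, 26.7 and 37.1 in untreated PL9. Its Nipponbare libraries ran from 33.8 to 53.1 and its Lambayeque1 libraries from 15.5 to 40.2, so that cold Sasanishiki and cold PL9 lay above every library of the other lines. For Os07g0694325, at a low level, both untreated groups lay below and both cold groups above all other group means, with 2.02, 3.13 and 1.14 in cold Sasanishiki, 12.3, 1.56 and 5.68 in cold PL9, and at most 2.32 elsewhere.

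**Figure D2:**
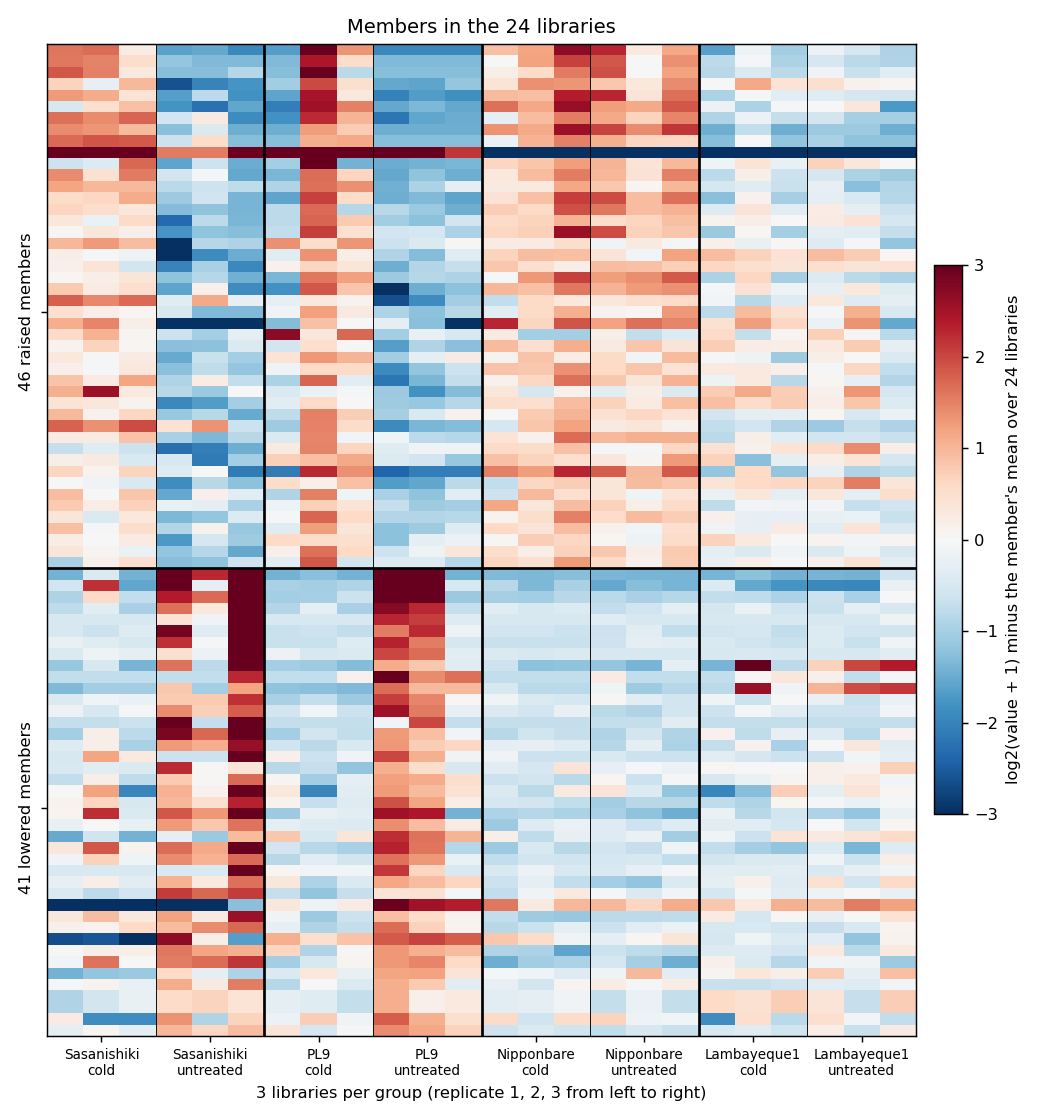
Each horizontal line is a member and each column a library, 3 per group, with log2(value + 1) minus the member's mean over the 24 libraries in colour (red higher, blue lower). Among the 46 raised members the blue blocks are untreated Sasanishiki and untreated PL9, and PL9 cold library 2 is the reddest; among the 41 lowered members the red blocks are untreated Sasanishiki libraries 1 and 3 and untreated PL9 libraries 1 and 2.

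The lowered class showed the mirror image, at lower levels. The median over the 41 members was 1.33 in cold and 8.76 in untreated Sasanishiki, 0.820 in cold and 6.40 in untreated PL9, 0.788 in cold and 0.819 in untreated Nipponbare, and 1.16 in cold and 1.27 in untreated Lambayeque1. Untreated Sasanishiki and PL9 both exceeded all 6 other group means for 34 of the 41 members. The rule itself put each of these untreated groups above its own cold group. In addition, 29 of the 41 reached the rule's floor for a group mean in Sasanishiki or PL9 alone. Their highest level lay in those lines by selection, so nothing is read from this count. Nipponbare lay nearer to the cold than to the untreated level of Sasanishiki and PL9 for 39 members and Lambayeque1 for 34. After cold, Sasanishiki and PL9 were mostly near the low level of the other lines for these members. The same selection favours low levels in the other lines, so this only describes the chosen members. In 11 of the 41, both Nipponbare means lay under 0.414, where a change of 0.5 is not possible. For 8 of these 11 the same held for both Lambayeque1 means. In these genes the small change was fixed by the low level, so a cold response there could not be read. In the raised class this applied to 1 of 46 members, in Lambayeque1.

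The median cold change of the lowered class was -1.61 in Sasanishiki (range -6.78 to -1.01) and -1.55 in PL9 (-5.84 to -1.01), against 0.01 in Nipponbare and -0.18 in Lambayeque1. All 3 cold libraries lay below all 3 untreated ones for 24 members in Sasanishiki, where 17.7% of all tested identifiers did so, and for 28 in PL9, where 17.9% did. For 18 members this held in both lines (8.15% of all tested) and for 7 in neither. Adjusted p-values from limma were under 0.05 for 25 of 41 in Sasanishiki, against 12.5% of all tested, and for 25 of 41 in PL9, against 8.27%. In Nipponbare, where 26.4% of all tested identifiers were called, and in Lambayeque1, where 22.8% were, limma called 0 of the 87 members, and 0 had an unadjusted p under 0.05. The 3 cold and 3 untreated libraries did not overlap for 5 lowered and 0 raised members in Nipponbare and for 2 lowered and 0 raised members in Lambayeque1, against 41.9% and 41.8% of all tested identifiers. The rule itself asked for small changes there, so nothing is read from these counts either.

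Os10g0351700 had the largest decrease in both lines. It measured 0, 1.00 and 0 in cold and 85.0, 12.0 and 339 in untreated Sasanishiki, and 0, 0.130 and 0 in cold and 87.0, 89.3 and 0 in untreated PL9. All 12 libraries of Nipponbare and Lambayeque1 were at or under 0.771. The gene was high in 5 of the 6 untreated libraries of Sasanishiki and PL9, listed at 0 in the third PL9 library, and low or at 0 everywhere else. Os06g0126400 had 3.59, 30.6 and 1.32 in cold and 82.1, 4.61 and 691 in untreated Sasanishiki, and 2.51, 2.39 and 2.65 in cold and 168, 107 and 3.91 in untreated PL9. The second untreated Sasanishiki library and the third untreated PL9 library were again the low ones, and the Sasanishiki groups overlapped. The 12 libraries of Nipponbare and Lambayeque1 ran from 0.769 to 4.92.

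Os02g0606400 separated cold from untreated libraries in both lines, with 0, 1.28 and 0.172 in cold and 13.4, 5.73 and 26.6 in untreated Sasanishiki, and 0, 0.385 and 0.226 in cold and 3.93, 2.79 and 0.921 in untreated PL9. Its highest value in Nipponbare was 0.385 and in Lambayeque1 1.23. Os04g0532500 was listed at 0 in all 6 cold libraries of Sasanishiki and PL9, and had 0.868, 0.299 and 19.5 in untreated Sasanishiki and 5.77, 4.86 and 0.0641 in untreated PL9. The group means of that gene rested on 1 Sasanishiki and 2 PL9 libraries. Os03g0155300, Os03g0358800 and Os11g0679700 also had no overlap between cold and untreated libraries in either line, with changes of -3.71, -1.67 and -2.59 in Sasanishiki and -2.19, -2.33 and -1.13 in PL9.

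**Figure D3:**
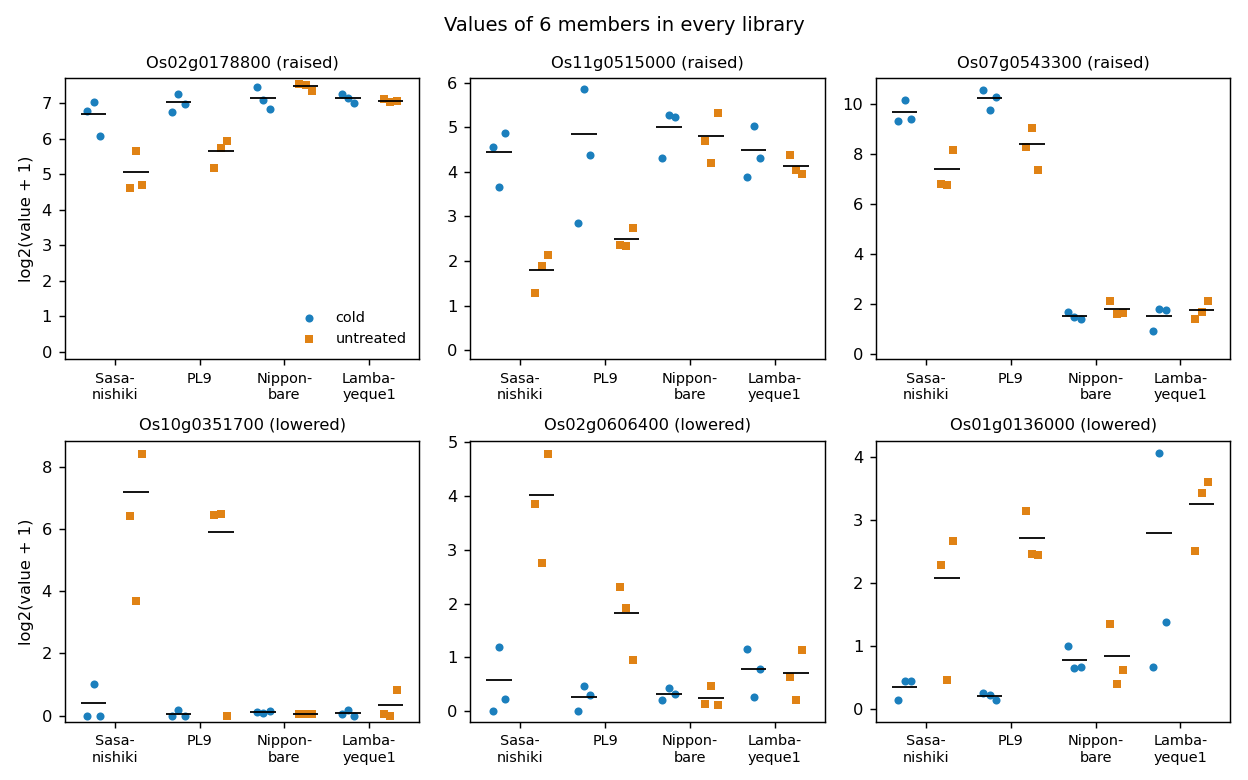
log2(value + 1) of 6 members in every library (blue circles, cold; orange squares, untreated; bars, log2 of the group mean plus 1). Os02g0178800 and Os11g0515000 are low only in untreated Sasanishiki and PL9, apart from PL9 cold library 1 of Os11g0515000; Os07g0543300 exceeds 100 in Sasanishiki and PL9 and is at most 3.39 in the other lines; Os10g0351700 and Os02g0606400 are highest in untreated Sasanishiki and PL9, apart from PL9 untreated library 3 (0 and 0.921); Os01g0136000 has 1 high Lambayeque1 cold library (15.7).

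The members whose name could be checked were a pair of small heat shock proteins, chaperones that bind unfolding proteins and keep them from clumping. HSP16.9C (Os01g0136000) measured 0.111, 0.363 and 0.364 in cold and 3.90, 0.382 and 5.37 in untreated Sasanishiki, and 0.200, 0.167 and 0.106 in cold and 7.91, 4.49 and 4.45 in untreated PL9. HSP23.2 (Os04g0445100) measured 0.204, 0.886 and 0 in cold and 7.19, 0.542 and 39.4 in untreated Sasanishiki, and 0.306, 0.25 and 0.0653 in cold and 4.73, 3.58 and 1.06 in untreated PL9. Neither exceeded 1.55 in any Nipponbare library. In Lambayeque1, HSP16.9C had 0.584, 15.7 and 1.60 in cold and 4.69, 9.87 and 11.1 in untreated anthers, and HSP23.2 had 0, 21.3 and 0.541 in cold and 3.24, 9.51 and 12.8 in untreated anthers. The second cold library was the highest of the 6 for both genes, and the other cold libraries lay below all 3 untreated ones. With all libraries the limma cold response in Lambayeque1 was -1.15 ± 0.63 for HSP16.9C (SE, adjusted p = 0.202) and -1.39 ± 0.98 for HSP23.2 (SE, adjusted p = 0.338). Without that library, an alternative in which 2 cold libraries are set against 3 untreated ones, it was -2.16 ± 0.48 (SE, limma adjusted p = 0.00512) and -2.78 ± 0.86 (SE, limma adjusted p = 0.0344). For this pair the small change in Lambayeque1 that made them members rests on 1 library. With all libraries, limma gave HSP16.9C -1.46 ± 0.63 in Sasanishiki (SE, adjusted p = 0.0977) and -2.48 ± 0.63 in PL9 (SE, adjusted p = 0.0115). It gave HSP23.2 -2.60 ± 0.98 in Sasanishiki (SE, adjusted p = 0.0593) and -1.65 ± 0.98 in PL9 (SE, adjusted p = 0.265). Only the decrease of HSP16.9C in PL9 was called, so the decreases of this pair were not established in both lines.

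Whether members also differed in level between the pairs of lines was examined with the mean of cold and untreated libraries in each line. This mean is not the cold change itself, but it comes from the same libraries that chose the members. The rule took the log of group means, whereas this mean averages log values. A group with 1 high library therefore counts for less here. Os01g0712800 in PL9 changed by 3.45 in the rule and by 1.77 in limma. The counts below stand beside identifiers not chosen in this way, so they describe the members and are no independent test. The rule's floor, a group mean of at least 5, also depends on level. A member that reached 5 in 1 pair of lines alone had its highest level there by selection, so the members are given by where they reached it. Of the 46 raised members, 37 reached it in both pairs of lines, 5 in Sasanishiki or PL9 alone and 4 in Nipponbare or Lambayeque1 alone. Of the 41 lowered members, 12 reached it in both pairs and 29 in Sasanishiki or PL9 alone. This split was added after the values had been seen.

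Among the 37 raised members that reached 5 in both pairs, 19 were lower in Sasanishiki and PL9 than in Nipponbare and Lambayeque1 at a limma adjusted p under 0.05 (51.4%, against 27.5% of the 13481 tested identifiers that reached 5 in both pairs), and the other 18 did not pass. Their median difference was -0.66 log2 units, against -0.05 over those identifiers. Among the 12 lowered members that reached 5 in both pairs, 4 were higher (33.3%, against 20.2% of those identifiers), 1 was lower (against 27.5%) and 7 did not pass, with a median of 0.09. Among the 29 lowered members that reached 5 in Sasanishiki or PL9 alone, 23 were higher (79.3%), but so were 69.2% of all 1336 tested identifiers that reached 5 in those lines alone. Over all members, whatever their floor, 21 raised members were lower (28% of all tested) and 1 higher (21.3%), and 27 lowered members were higher and 1 lower. Nothing is read from these last counts.

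**Figure D4:**
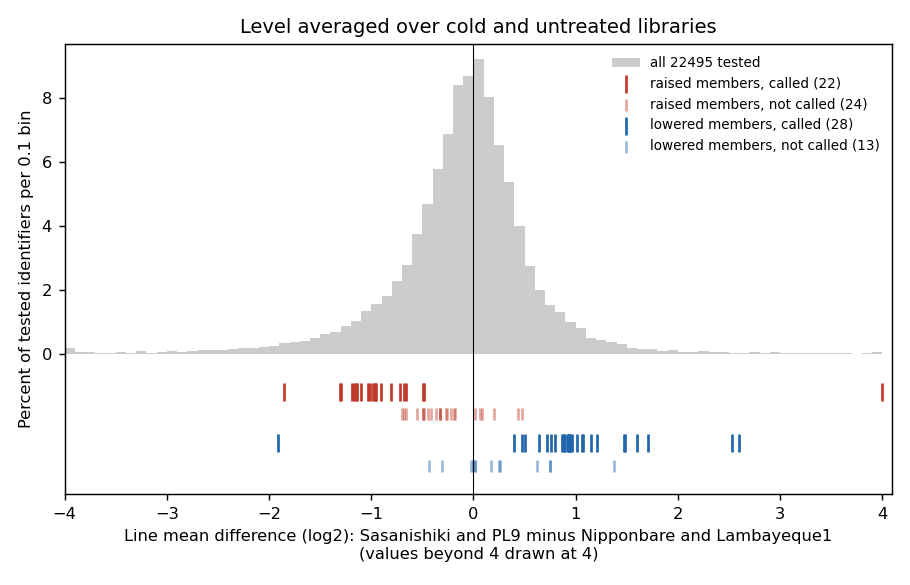
Line mean difference in log2 units, Sasanishiki and PL9 minus Nipponbare and Lambayeque1, as the percent of all 22495 tested identifiers per bin (grey), with each raised (red) and lowered (blue) member as a tick below, tall where the limma adjusted p was under 0.05. Most called raised members lie left of 0, except Os07g0543300 (7.21, drawn at 4). Most called lowered members lie right of it, except Os05g0460475 (-1.91), which was low in Sasanishiki and not in PL9. Of the 41 lowered members, 29 reached a group mean of 5 in Sasanishiki or PL9 alone, a selection by level.

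The members tested by name all reached 5 in both pairs of lines. The raised gene Os12g0529300 averaged 2.04 log2 units in Sasanishiki and PL9 and 3.89 in Nipponbare and Lambayeque1, a difference of -1.85 ± 0.34 (SE, limma adjusted p = 0.000197). For Os11g0515000 the averages were 3.24 and 4.55, with a difference of -1.31 ± 0.26 (SE, limma adjusted p = 0.000464), and for Os02g0178800 they were 6.07 and 7.21, with a difference of -1.14 ± 0.13 (SE, limma adjusted p = 1.1e-06). In the lowered class Os03g0133300, a member just inside the limit for the change, averaged 4.20 in Sasanishiki and PL9 and 3.33 in Nipponbare and Lambayeque1, a difference of 0.87 ± 0.12 (SE, limma adjusted p = 8.6e-06). Os05g0460475, described with the PL9 comparison, differed by -1.91 ± 0.25 (SE, limma adjusted p = 3.2e-06). Its line averages were 0.56 in Sasanishiki, 5.22 in PL9, 4.78 in Nipponbare and 4.82 in Lambayeque1. It was thus low in Sasanishiki and not in PL9. Os07g0543300 passed the floor in Sasanishiki and PL9 alone, and its averages of 8.84 in Sasanishiki and PL9 and 1.64 in Nipponbare and Lambayeque1 are given without a test.

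Nipponbare and Lambayeque1 were also taken one at a time, among members that reached 5 in both pairs of lines. Against Nipponbare alone, 30 of 37 raised members were lower in Sasanishiki and PL9 (81.1%, against 27.6% of the identifiers that reached 5 in both pairs) and the other 7 did not pass, with a median of -1.03 log2 units. Against Lambayeque1 alone, 10 were lower (27%, against 19.6%) and 2 were higher (5.41%, against 13.6%), with a median of -0.08. Of the 12 lowered members, 3 were higher against Nipponbare and 2 against Lambayeque1. Over all members without regard to the floor, 34 raised members were lower (28% of all tested) and 22 lowered members higher (20.1%) against Nipponbare, and 10 raised members were lower (20.1%) and 18 lowered members higher (15.3%) against Lambayeque1. Both comparisons share the Sasanishiki and PL9 libraries, and the difference between them was not tested. They were added after the values had been seen.

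PL9 and Sasanishiki, taken as the mean of cold and untreated libraries, differed in 19 of the 87 members by limma, where 28.6% of all tested identifiers differed. Of the raised members 5 were higher (15.5% of all tested) and 4 lower (13.1%) in PL9, and of the lowered members 4 were higher and 6 lower. The largest difference was that of the lowered gene Os05g0460475. It measured 17.2, 11.9 and 16.0 in cold and 109.6, 81.5 and 71.8 in untreated PL9, and 0, 0 and 0.683 in cold and 0, 0 and 5.01 in untreated Sasanishiki, a line difference of 4.66 ± 0.35 log2 units (SE, limma adjusted p = 1.2e-09). Its 12 Nipponbare and Lambayeque1 libraries lay between 16.2 and 41.8. In Sasanishiki it met the rule through 1 untreated library, while in PL9 the cold and untreated groups did not overlap.

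Os01g0313600 was also higher in PL9, by 2.52 ± 0.45 log2 units (SE, limma adjusted p = 0.000215). It measured 20.7, 13.5 and 18.0 in cold and 36.3, 41.7 and 35.6 in untreated PL9, and 0.654, 0.749 and 0.278 in cold and 66.6, 10.9 and 2.30 in untreated Sasanishiki. Its change of -4.14 in Sasanishiki left cold anthers of that line below every library of the other lines. In the other direction, the raised gene Os06g0594600 was lower in PL9, with a difference of -1.81 ± 0.29 (SE, limma adjusted p = 5.0e-05). It had 20.5, 30.4 and 26.3 in cold and 3.10, 5.88 and 11.3 in untreated PL9, and 87.2, 67.8 and 81.1 in cold and 18.9, 55.2 and 20.5 in untreated Sasanishiki. After cold PL9 was within the range of Nipponbare and Lambayeque1 (13.3 to 37.3), whereas cold Sasanishiki was above it.

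Within groups, many members were high and low in the same libraries. PL9 cold library 2 was the highest of its group for 38 of the 46 raised members and PL9 cold library 1 the lowest for 38, against 43.4% and 36.5% of all identifiers with a group mean of at least 5. The class median was 2.45, 4.49 and 3.27 log2 units in PL9 cold libraries 1, 2 and 3, and 1.47 to 1.69 in untreated PL9. For 21 of the 46 raised members PL9 cold library 1 was no higher than the highest untreated PL9 library, against 0 for library 2 and 3 for library 3. Without libraries 1 and 2, that is with cold library 3 alone, the median level of the raised class in cold PL9 was 8.62 and the median change 1.56, and the change was larger than in Sasanishiki for 24 of 46 members. All 46 changes had been at least 1 by the rule, and 35 of them were so with cold library 3 alone, where limma called 21 of 46. Without cold library 2 the median change was 1.20, 31 were at least 1 and limma called 9 of 46, whereas without cold library 1 limma called 41. For the lowered class the median change in PL9 was -1.60 without libraries 1 and 2, 40 of 41 changes stayed at or beyond -1, and limma called 3 of 41. In Sasanishiki the 3 cold libraries lay close together, at 3.31, 3.16 and 3.13, against 1.30 to 1.83 in untreated anthers.

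For the lowered class the spread lay in the untreated groups. Sasanishiki untreated library 3 was the highest of its group for 32 of 41 members and library 2 the lowest for 29, against 40.5% and 31.2% of all identifiers with a group mean of at least 5. PL9 untreated library 1 was the highest for 34 and library 3 the lowest for 38, against 36.2% and 34.2%. The class median in untreated libraries 1, 2 and 3 was 3.17, 2.18 and 4.13 log2 units in Sasanishiki and 3.29, 2.78 and 1.47 in PL9. Cold libraries had medians of 0.94 to 1.69 in Sasanishiki and 0.79 to 1.00 in PL9, so the third untreated PL9 library was close to the cold ones.

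**Figure D5:**
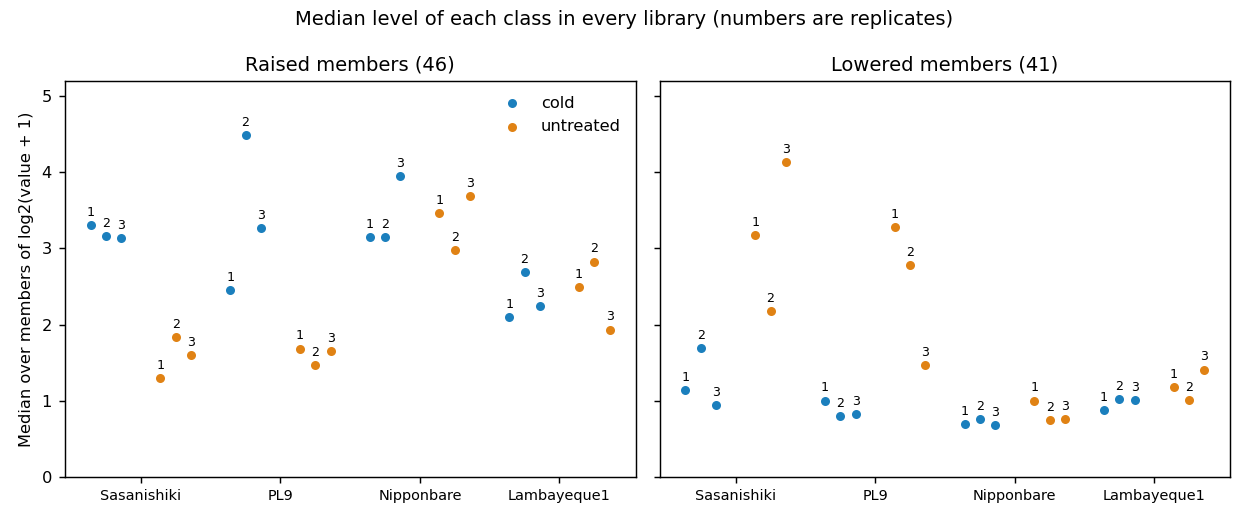
Median of log2(value + 1) over the 46 raised (left) and 41 lowered (right) members in each library (blue, cold; orange, untreated; the number beside a point is the replicate). Untreated Sasanishiki and PL9 are lowest on the left, and on the right their libraries spread widely, with Sasanishiki untreated library 3 at 4.13 and PL9 untreated library 3 at 1.47.

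The group means of 4 tapetum markers were higher after cold in all 4 lines, unlike the members. The sum of 4 tapetum markers (RAFTIN1, C6, C4 and CYP703A3) was 35668 to 46449 in cold and 6907 to 16551 in untreated Sasanishiki, and 38271 to 62631 in cold and 5594 to 18234 in untreated PL9. In Nipponbare it was 55672 to 105980 in cold and 6092 to 9254 in untreated anthers, and in Lambayeque1 46637 to 56163 in cold and 4749 to 6956 in untreated anthers. In the cold PL9 group the sum was 38271, 62631 and 49243 in libraries 1, 2 and 3, the order of the raised class. In the cold Sasanishiki group it was 39217, 35668 and 46449, which is not the order of the raised class there (3.31, 3.16 and 3.13). In untreated anthers it was 8557, 16551 and 6907 in Sasanishiki and 5594, 10306 and 18234 in PL9, highest in the libraries where the lowered class was lowest. CYP703A3, a small part of these sums, averaged 0.573 in untreated Sasanishiki and 0.506 in untreated PL9. In untreated Nipponbare it averaged 318 and in untreated Lambayeque1 32.4. Its cold means were 417, 544, 1217 and 164 in Sasanishiki, PL9, Nipponbare and Lambayeque1. None of the 4 markers was at 0 in all libraries of a group, and their part in the members' changes was not tested.

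Tapetum regulators, such as the receptor kinase MSP1 and the transcription factors UDT1, TIP2 and EAT1, steer the development of this layer. The sum over 5 of 7 listed regulators (MSP1, UDT1, TIP2, EAT1 and PTC1; the others stand on several rows) was 312 to 362 in cold and 85.0 to 135 in untreated Sasanishiki, and 223 to 487 in cold and 123 to 179 in untreated PL9. In Nipponbare it was 280.0 to 382 in cold and 197 to 276 in untreated anthers, and in Lambayeque1 220.2 to 257 in cold and 107 to 146 in untreated anthers. By limma, 3 of the 5 were higher after cold in Sasanishiki, 2 in PL9, 1 in Nipponbare and 2 in Lambayeque1, where 12.6%, 9.05%, 12% and 11.3% of all tested identifiers were higher in these lines. The group means of the 5 regulators did not all move alike, though MSP1 and EAT1 were higher after cold in every line. PTC1 averaged 12.2 in cold and 0.441 in untreated Sasanishiki, and 18.1 and 0.608 in PL9. It was lower after cold in Nipponbare (13.7 against 26.0) and in Lambayeque1 (3.59 against 6.30). TIP2 was also lower after cold in Nipponbare and Lambayeque1, and UDT1 in Nipponbare. No listed regulator was a member. Of 6 pollen wall and tapetum product genes that could be used, which include the 4 markers above, 6 were higher after cold in Sasanishiki, 5 in PL9, 4 in Nipponbare and 4 in Lambayeque1, and none of the 12 listed that stand on 1 row was a member. Summed meiotic markers (DMC1A, PAIR3 and MEL1) were 15.2 to 25.5 in cold and 18.5 to 30.1 in untreated Sasanishiki, and 8.06 to 11.5 in cold and 20.5 to 28.5 in untreated PL9; their part was not tested either. In Nipponbare they were 6.78 to 7.83 in cold and 12.3 to 15.5 in untreated anthers, and in Lambayeque1 7.08 to 10.9 in cold and 17.4 to 24.8 in untreated anthers. These genes did not move alike. The group mean of DMC1A was lower after cold in every line, and that of PAIR3 in all but Nipponbare. MEL1 was higher after cold in every line, with 11.9 against 7.29 in Sasanishiki and 1.99 against 1.25 in PL9. Its means were 2.84 against 2.34 in Nipponbare and 2.26 against 1.06 in Lambayeque1. The usable green tissue marker, the plastocyanin gene PETE, measured 126 to 171 in cold and 25.4 to 55.2 in untreated Sasanishiki, and 126 to 154 in cold and 10.1 to 26.0 in untreated PL9. In Nipponbare PETE measured 154 to 421 in cold and 28.5 to 94.6 in untreated anthers, and in Lambayeque1 130.2 to 204 in cold and 54.7 to 96.5 in untreated anthers.

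How far membership carried over to other libraries was read by choosing members from 2 replicate numbers and looking at the third. Of the identifiers so chosen as raised, 24 of 42, 50 of 66 and 48 of 56 were higher after cold in both Sasanishiki and PL9 in held-out libraries 1, 2 and 3, against 31.8%, 27.7% and 29.2% of all identifiers in the same libraries. Of those chosen as lowered, 39 of 43, 28 of 60 and 24 of 29 were lower in both, against 32.6%, 26.6% and 34.5%. The small change in Nipponbare and Lambayeque1 did not carry over in the raised class. It was under 0.5 in both lines for 9 of 42, 11 of 66 and 12 of 56, each below the 37.3%, 28.1% and 30.7% of all identifiers. For lowered ones it was 16 of 43, 25 of 60 and 9 of 29, near those shares for libraries 1 and 3 and above for library 2. A low level limits the change, and 11 of the 41 lowered members were too low in Nipponbare to change by 0.5. The classes can therefore not be compared on this point. Median raised changes in held-out libraries 1, 2 and 3 were -0.14, 0.39 and 0.54 in Nipponbare and -0.25, 0.94 and 0.49 in Lambayeque1. In Sasanishiki they were 1.83, 0.88 and 1.25, and in PL9 0.34, 2.71 and 1.12. Lowered medians were 0, -0.06 and 0.04 in Nipponbare and -0.15, -0.04 and -0.62 in Lambayeque1. The whole rule held in the left-out library for 3 of 42, 3 of 66 and 7 of 56 raised and 10 of 43, 3 of 60 and 2 of 29 lowered identifiers, against 0.105% to 0.341% of all identifiers. Os02g0178800 and Os07g0543300 in the raised class, and Os02g0606400, Os03g0155300, Os03g0358800, Os03g0831000, Os05g0567200, Os07g0638000 and Os10g0351700 in the lowered class, were chosen in all 3 rounds.

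The limits of the rule run through a continuum of values. Among raised identifiers the smaller of the 2 changes was 1.01 for Os05g0137700, just inside, and 0.99 for Os05g0428400, just outside. The larger absolute change in Nipponbare and Lambayeque1 was 0.48 for Os07g0663000, inside, and 0.50 for Os10g0128300, outside. Among lowered identifiers the smaller change was -1.01 for Os03g0133300, inside, and -0.99 for Os12g0167700, outside, and the highest group mean was 5.19 for Os10g0391300, inside, and 4.97 for Os10g0534700, outside. The same rule with the pairs of lines exchanged found 44 raised and 80 lowered identifiers changed in Nipponbare and Lambayeque1 alone, 124 in all against 87. There both untreated groups lay below all others for 22 of 44 and both cold groups above all others for 25 of 44, against 32 of 46 and 7 of 46 in the raised members described here. In its lowered class both untreated groups lay above all others for 68 of 80 and both cold groups below all others for 20 of 80, against 34 of 41 and 4 of 41 here. In a lowered class either rule puts the untreated groups of the chosen pair above their cold groups. The floor of 5 can also be reached through those untreated groups alone. Nothing is therefore read from the likeness of these lowered counts. In a raised class either rule likewise puts the untreated groups of the chosen pair below their cold groups. The raised counts therefore only describe the chosen identifiers. No count was compared between the rules by a test.

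Members were spread over the genome and had rather low levels. Their median highest group mean was 13.5 in the raised and 10.6 in the lowered class, against 21.7 over all identifiers with a group mean of at least 5. By the chromosome number in their identifiers, 14 lay on chromosome 3 (16.1%, against 13.3% of all identifiers with a group mean of at least 5). Chromosomes 1 and 7 had 10 each (11.5%, against 14.1% and 7.64%). Chromosomes 8 and 9 had 4 each (4.60%, against 6.70% and 5.42%). The 4 on chromosome 8 were raised. The highest group mean was under 10 for 16 of 46 raised (34.8%) and 20 of 41 lowered members (48.8%), against 22.6% of the 16086 identifiers with a group mean of at least 5. Os07g0156732 and Os07g0157401, both lowered and 3 places apart in identifier order, had identical values in all 24 libraries, so they count as 1 measurement and which of them was transcribed is uncertain. Neighbouring pairs that moved the same way and had different values included the raised Os07g0543300 and Os07g0543600, and the raised Os06g0691200 and Os06g0691500, each 2 places apart. In the second of each pair, named here after its values had been seen, the level was at most 24.1 for Os07g0543600 and 11.6 for Os06g0691500 in any library. Whether neighbours share reads was not analysed here.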

How the data were processed

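The members and gene lists were chosen with earlier results of these data known. The deposited tables hold 1 signal value per transcript, called TPM per the file headers. The submitters' processing notes name kallisto 0.46.2, sleuth 0.30.0 and the build IRGSP-1.0, which was made from Nipponbare. Columns sum to more than TPM allows, and 5399 of 37910 identifiers stand on several of the 44785 rows; the values were treated as a signal with unknown depth. The counting of strand is not given in the sources used here, so antisense or overlapping genes may share reads.

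Identifiers on 1 row were used. Group means of 3 libraries gave the cold changes. For tests, log2(value + 1) of the 22495 identifiers that reached 1 in 3 or more libraries (all 87 members) was fitted with limma 3.58.1 (R 4.3.3) to 8 group means over all 24 libraries, with a trend of variance on level and Benjamini-Hochberg adjustment at 0.05. Fold changes on this scale understate low genes. On simulated data with 200 changed genes of 22495, the comparison of line means recovered 89.6%, 98.5% and 100% of changes of 1, 2 and 4 log2 units, and 4.95% of calls were false. The changed genes all had a mean above 2 log2 units, and the noise was independent between libraries. These rates do not cover lower genes, among them many lowered members, or libraries that deviate together. The measured data also had far more calls, with 21.3% of identifiers higher and 28% lower.

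Members were named as follows: per class the 12 with the largest smaller change among those without overlap in both lines, members with a name, those next to each limit of the rule, and the 5 largest called differences per direction in each comparison of line means. From these the text shows those that carry the patterns. Names were given only where chromosome and gene order of an identifier and a symbol matched within 2% in RefSeq's gene table of assembly ASM3414082v1, which lists none of the identifiers themselves. Alternatives were other pseudocounts, filters, scalings, thresholds and single libraries left out.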

Additional observations from a re-analysis of the deposited data

How the results depend on the processing

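Which identifiers are members depends on the rule's settings. With a pseudocount of 5 the rule found 21 raised identifiers, 13 of them members, and 28 lowered ones, of which 4 were members. A group mean of at least 20 left 16 raised and 7 lowered, a change under 0.25 in the other lines 14 and 14, and a change of at least 2 left 8 and 7, whereas a change under 1 in the other lines gave 206 and 115. Leaving out 1 library at a time gave 36 to 73 raised and 23 to 57 lowered identifiers, with 73 raised without Lambayeque1 cold library 2 and 23 lowered without Sasanishiki untreated library 3.

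In the comparison of line means over all members, without regard to the floor and with single libraries left out, 15 to 31 raised members were lower and 22 to 29 lowered members higher in Sasanishiki and PL9. Against Nipponbare alone the ranges were 28 to 38 and 18 to 29, and against Lambayeque1 alone 6 to 14 and 13 to 25, with 6 raised members lower without Lambayeque1 cold library 2 and also 6 with a pseudocount of 5. Between PL9 and Sasanishiki 14 to 23 members differed, and 12 without PL9 cold libraries 1 and 2, an alternative chosen after seeing the data. Libraries with the same replicate number did not deviate together (correlations -0.39 to 0.12, above 0.1 for 2 of 12 pairs). With the replicate block 20 raised members were lower, 25 lowered members higher, and 17 members differed between PL9 and Sasanishiki. Cold calls ranged over single libraries left out from 39 to 66 in Sasanishiki (39 without cold library 1, untreated library 1 or untreated library 3), 15 to 62 in PL9 (23 without cold library 2, 15 without untreated library 1), 0 to 0 in Nipponbare and 0 to 2 in Lambayeque1. In PL9 they numbered 24 without cold libraries 1 and 2. The causes were not tested. A count of members cannot reverse, so a reversal could be seen for the named genes alone, and their values kept their sign. Of the alternatives for named cold changes, 49 moved the value by at least the larger SD of its groups and 1451 by less. Many of the latter left out libraries of other lines, which could not move it. Of the named differences between PL9 and Sasanishiki, those of Os02g0183500, Os09g0563950 and Os02g0606400 missed the threshold under 9, 8 and 1 alternatives. Unknown depth limits statements on members listed at 0.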
